A study of Mus musculus with 8 samples.

Results

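The genes described here encode classic self-antigens of single organs: hormones of the pancreatic islet, milk proteins, plasma proteins of the liver, and proteins of gut, glands, the nervous system, muscle, thyroid and pigment cells. They were chosen by name, and every probe set (a group of short oligonucleotides that read 1 transcript) with 1 of the 33 names as its only gene symbol was taken. Of the 33 genes 29 had such a probe set, 54 probe sets in all, out of 18193 named genes and 45037 probe sets on the array. Ins1, Gc, Mup1 and Muc6 had none and are not analysed here, and salivary protein 1 (Spt1) was found under its current name, Mucl2. The samples were mouse spleen and lymph node, wild-type or knockout for Aire, with 2 Affymetrix arrays in each of the 4 groups, called A and B as in the labels. The labels name no strain, age, sex, allele, sorted cell or animal. Spleen and lymph node therefore stand for the tissue each sample came from, and whether certain cells were enriched is not stated. The 2 arrays of each group differed in a sex-linked signal, given below, so they were not repeats of 1 RNA sample. The p-values measure the spread between arrays, which are taken as independent. The labels do not say how many animals gave each array, or whether spleen and lymph node arrays came from the same animals. The study's title concerns cells that express Aire outside the thymus.

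Aire, the autoimmune regulator, is a nuclear protein best known from medullary epithelial cells of the thymus, where it drives low, patchy transcription of genes that are otherwise restricted to single organs. Developing T cells that recognise those products are deleted or become regulatory T cells, and loss of Aire leads to autoimmune disease of several organs. In the thymus, insulin, salivary protein 1 and several others on the list need Aire, whereas Crp and Gad1 are known as antigens that thymic epithelium makes without it. Aire is also found in rare cells of spleen and lymph node with features of dendritic cells.

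The targeted gene was lower in every knockout array. The Aire signal was 5037 and 5204 in wild-type spleen, 1009 and 2376 in knockout spleen, 3052 and 3535 in wild-type lymph node, and 791 and 1137 in knockout lymph node. The knockout minus wild-type difference, averaged over tissues, was -1.76 ± 0.33 on the log2 scale (SE, 4 arrays against 4; limma adjusted p = 0.319). The sources used here do not say whether this probe set reads the part of Aire that was removed. All 6 dendritic cell markers examined were above background on all 8 arrays, among them Ccr7, Fscn1 and Ccl22, and their summed signal ran from 25527 to 40226. The sum for 4 B cell markers ran from 148 to 1616, and that for 5 T cell markers from 451 to 2027. The summed signal of 8 macrophage markers was 1849 to 3771 on wild-type and 2343 to 11494 on knockout arrays and overlapped between genotypes in both tissues, with both knockout A arrays highest. Their mean log2 signal did not overlap within a tissue, at 6.14 and 5.58 in wild-type spleen, 9.23 and 6.94 in knockout spleen, 6.98 and 5.91 in wild-type lymph node, and 8.81 and 7.10 in knockout lymph node. The mean log2 signal of 6 proliferation markers was 5.40 to 6.49 on wild-type and 7.02 to 8.77 on knockout arrays. Epcam, an epithelial adhesion protein, was lower on each knockout array than on the wild-type arrays of its tissue, at 1147 and 1943 in knockout against 2155 and 2468 in wild-type spleen, and at 428 and 935 against 1416 and 1988 in lymph node. Of all probe sets 3.67% were lower in this way in both tissues. The other epithelial markers examined were not lower in both. Krt8 overlapped in spleen, at 184 and 1632 in knockout against 775 and 1230.5 in wild-type. In lymph node Krt8 was lower in knockout without overlap, at 413 and 467 against 1199 and 630. Krt18, Krt14, Cdh1 and Krt5 overlapped in lymph node. In spleen Krt18 was lower in knockout without overlap, at 64.4 and 113 against 217 and 134. So was Krt14, at 8.74 and 8.07 against 27.7 and 21.4, all under background. Cdh1 overlapped in spleen as well, and Krt5 was under background on every array. Xist, which coats the silenced X chromosome, was 14.6 and 23.1 on the knockout B arrays and at least 3565 on each of the 6 others, and the Y-linked Eif2s3y was 21.2 and 3.80 on the wild-type A arrays and at least 521 on the rest. Wild-type B and knockout A arrays of both tissues thus had both signals, wild-type A arrays Xist alone and knockout B arrays Eif2s3y alone. The sex-linked signals were therefore not matched between the genotypes. Lymph node wild-type A and lymph node knockout B stood apart in 2 of 7 salivary gland markers picked after the data were seen: Smr3a was 1903 and 2659 there and at most 42.4 elsewhere, and Amy1, salivary amylase, was 1561 and 2667 and at most 14.2 elsewhere. Of the other 5, Dcpp1 was above background on lymph node knockout B alone (70.5), Klk1 on all 8 arrays, and Aqp5, Smgc and Prol1 on none.

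Most of these self-antigens were not above background on any array. Signals are on the deposited scale after each array was brought to a common median, and a probe set was called above background where its signal exceeded 59.0, the median of all values. The 15 probe sets for bacterial transcripts, which no mouse cell makes, reached 31.1 at most. By this level 3 to 9 of the 54 antigen probe sets, or 2 to 5 of the 29 genes, were above background on an array, where as many of all probe sets lie above it as below it by construction. On no array were 39 of the 54 (72.2%) above background, against 34.1% of all probe sets, and 15 were on at least 1 array, against 65.9% of all. On at least 2 arrays 8 of the 54 were, against 58.8% of all, and on all 8 arrays 2 were, both for Mbp, against 36.4% of all. A further 20 to 29 antigen probe sets per array lay at or under 9.58, the 20th percentile of all values, which served as the floor. The level matters: with the highest bacterial control of the same array in its place, a level chosen after the data were seen, 30 of the 54 were above it on at least 2 arrays, and with the 75th percentile of all values 2 were.

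**Figure D1:**
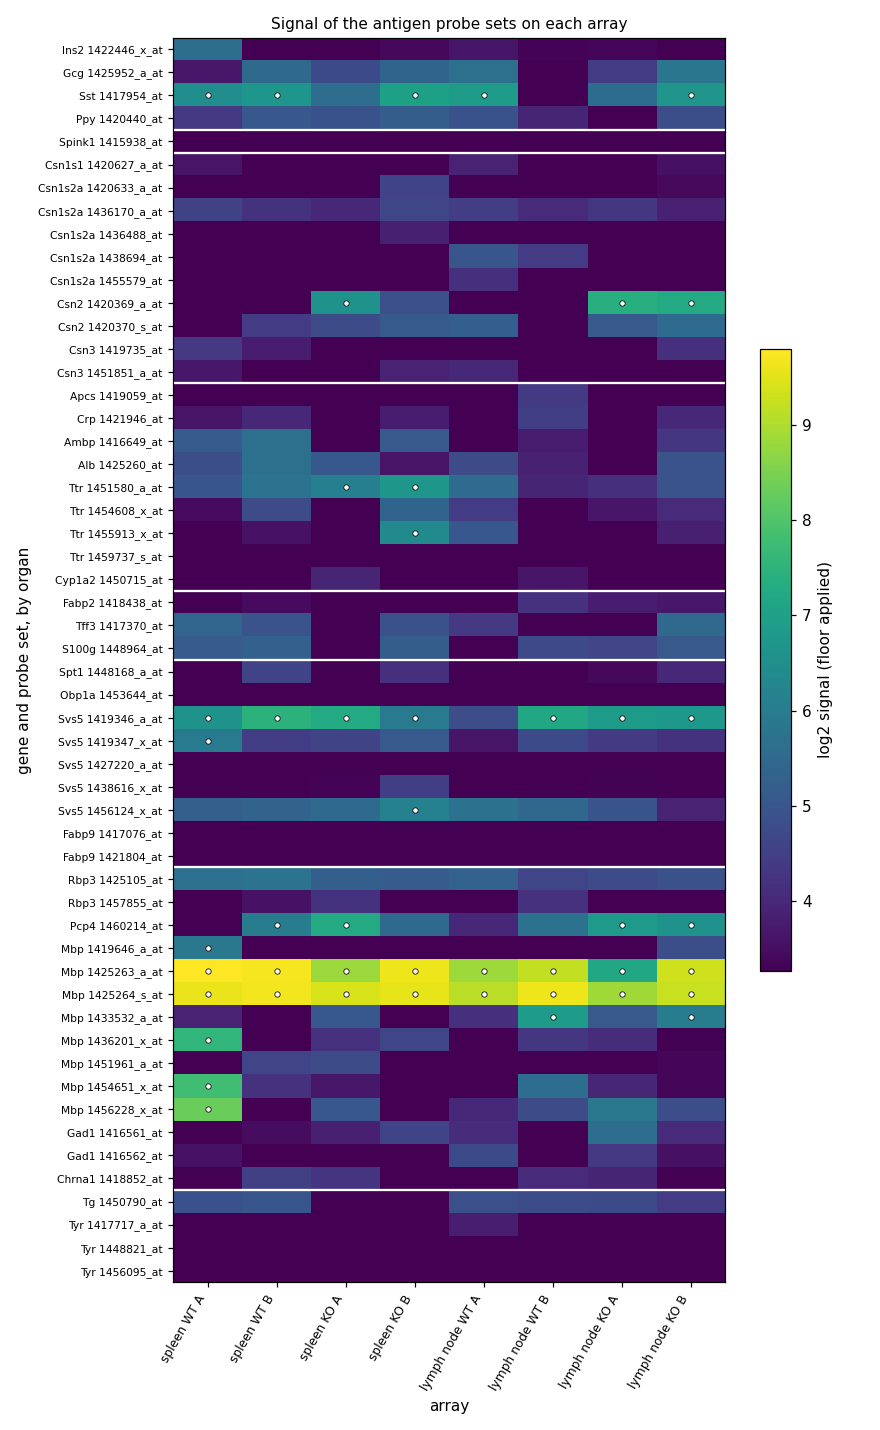
Log2 signal (floor applied) of the 54 antigen probe sets, in rows by organ, on the 8 arrays, in columns; white dots mark signals above the background level of 59.0. Only 2 rows, both for Mbp, carry a dot on all 8 arrays, and 39 rows carry none.

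**Figure D2:**
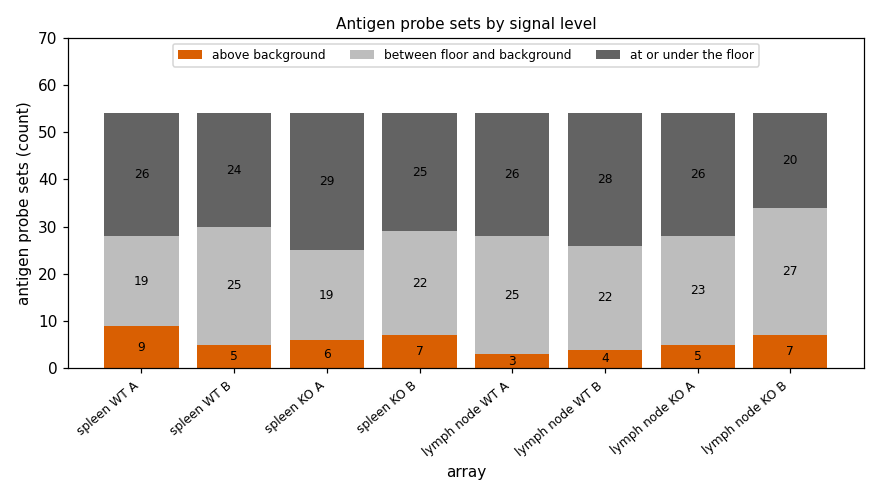
Number of the 54 antigen probe sets on each array that were above background, between the floor and background, or at or under the floor. The orange bars, above background, span 3 on lymph node wild-type A to 9 on spleen wild-type A.

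The counts above background by group were 9 and 5 in wild-type spleen, 6 and 7 in knockout spleen, 3 and 4 in wild-type lymph node, and 5 and 7 in knockout lymph node. Wild-type and knockout arrays overlapped in spleen. In lymph node both knockout arrays held more, and Csn2 and Pcp4 were the genes above background on both of them and on neither wild-type array. Of the 9 on wild-type spleen A, 4 were Mbp probe sets above background on that array alone.

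The milk protein gene Csn2 was the antigen that differed most between genotypes. It encodes beta-casein, a major protein of milk made by mammary epithelium in lactation. Probe set 1420369_a_at read 0.764 and 0.492 in wild-type spleen, 3.85 and 5.56 in wild-type lymph node, 96.9 and 28.9 in knockout spleen, and 164 and 152 in knockout lymph node. All 4 wild-type arrays were under the floor, and 3 of the 4 knockout arrays were above background, both of lymph node and A of spleen. The fitted difference, knockout minus wild-type, was 4.04 ± 0.56 in lymph node, 2.46 ± 0.56 in spleen and 3.25 ± 0.39 averaged over tissues (log2, SE, 2 arrays a group). Since wild-type signals were not above background, a fold can only be bounded. Csn2 was at least 2.67-fold higher in knockout lymph node, against the background level. No such bound holds in spleen or averaged over tissues, since knockout spleen B, at 28.9, was itself under background.

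Csn2 did not pass correction over the 26480 probe sets tested. Its limma adjusted p was 0.652 in lymph node, 0.424 in spleen and 0.12 averaged, with unadjusted p = 0.000163, 0.003 and 7.12e-05. Exchanging genotypes among the arrays of each tissue, in an exact two-sided permutation test, gave p = 0.0556, the smallest that its 36 assignments can give. This test and the averaged fit take spleen and lymph node arrays as separate units. If a letter links the tissues within a genotype, as the sex-linked signals would allow, both overstate the number of units. The probe set entered the test through its knockout arrays alone, so a difference was built into its being tested. The averaged adjusted p was 0.0279 without knockout spleen B (difference 3.69), and the spleen difference was 1.58 without knockout spleen A and 3.34 without B. With no floor the averaged adjusted p was 0.0225 and the spleen difference 6.43, and with a floor at the 40th percentile the spleen difference was 0.73 and that in lymph node 2.17. The other Csn2 probe set, 1420370_s_at, stayed under background on all 8 arrays, at 6.94 and 21.3 (wild-type spleen), 27.2 and 34.9 (knockout spleen), 37.1 and 0.410 (wild-type lymph node), and 34.3 and 47.1 (knockout lymph node). Its knockout arrays read higher than its wild-type arrays in spleen and overlapped with them in lymph node. Signals under background give no measured difference.

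The other caseins stayed under background on every array. Csn1s1, the alpha casein, had at most 14.7 on any array, the 5 probe sets of Csn1s2a at most 32.5, and the 2 of Csn3, kappa-casein, at most 20.4. The casein genes lie side by side, and the 12 other genes with a probe set in the stretch from 4 genes before Csn1s1 to 4 after Csn3 gave 20 probe sets, of which only that of Smr3a was above background on any array, in the 2 lymph node samples with high Smr3a and Amy1. Of those 2 samples, wild-type A had a Csn2 signal of 3.85 and knockout B had 152. Csn2 was 164 on knockout lymph node A, where Xist was 6355 and the Y-linked Eif2s3y 521. It was 152 on B, where Xist was 23.1 and Eif2s3y 1988. In knockout spleen Csn2 was 96.9 on A, with Xist at 5527 and Eif2s3y at 1116. It was 28.9 on B, with Xist at 14.6 and Eif2s3y at 1968. The part of sex in the Csn2 signal was not tested. Of other milk genes, Wap was at most 49.5 and Lalba at most 5.76, and Elf5, a transcription factor of the milk-secreting cell, was at most 16.8, all under background. The keratins Krt8 and Krt18, which many epithelia make, were above background on 8 and 7 arrays. By mean log2 signal, but not by summed signal, the macrophage and proliferation markers differed between the genotypes without overlap within either tissue. Csn2 differed in this way as well. So did Epcam, while each of the other epithelial markers overlapped in spleen or in lymph node. The part of these in the Csn2 difference was not tested.

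The bases upstream of 3 transcription starts are shown. Csn2 and Pcp4 were the antigens with the largest knockout differences, and Csn1s1 is a casein beside Csn2 that stayed under background. They are the 250 bases before the RefSeq start (build GRCm38.p6), 5′ to 3′ on the gene's strand, from chr5:87699426-87699675 (minus strand) for Csn2, chr5:87665958-87666207 (plus strand) for Csn1s1 and chr16:96467356-96467605 (plus strand) for Pcp4. Capitals mark TTCNNNGAA, the letters of a STAT-binding element, searched on both strands, along with TATAAA, a common form of the TATA box.
Csn2: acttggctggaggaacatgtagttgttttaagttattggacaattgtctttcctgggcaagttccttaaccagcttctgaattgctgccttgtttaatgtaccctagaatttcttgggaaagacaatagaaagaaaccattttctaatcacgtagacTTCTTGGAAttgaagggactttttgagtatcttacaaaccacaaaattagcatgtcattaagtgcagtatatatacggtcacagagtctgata
Csn1s1: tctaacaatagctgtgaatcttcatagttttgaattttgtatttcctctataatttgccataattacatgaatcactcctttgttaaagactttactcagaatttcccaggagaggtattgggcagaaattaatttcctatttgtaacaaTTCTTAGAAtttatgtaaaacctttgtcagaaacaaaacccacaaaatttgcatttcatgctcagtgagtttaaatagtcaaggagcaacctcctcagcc
Pcp4: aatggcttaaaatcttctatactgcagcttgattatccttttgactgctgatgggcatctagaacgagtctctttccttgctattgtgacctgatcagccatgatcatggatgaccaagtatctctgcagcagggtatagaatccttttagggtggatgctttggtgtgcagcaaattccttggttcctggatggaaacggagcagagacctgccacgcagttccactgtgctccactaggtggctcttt
TTCNNNGAA occurred once in Csn2, starting 93 bases before the start, and once in Csn1s1, starting 100 bases before it, and not in the window of Pcp4. Csn1s2a, the casein on the other side of Csn2, also stayed under background, and its window, not shown, held no TTCNNNGAA. TATAAA was in none of the 3 windows shown, and other forms of the TATA box were not searched. Of all 32817 promoter windows of this length 7.01% held TTCNNNGAA and 12.4% held TATAAA, and of 24 windows for antigen genes 3 and 8 did. A match is a description of the letters in the window.

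Pcp4, which encodes a small calmodulin-binding protein abundant in Purkinje cells of the cerebellum, had the next largest genotype difference. Its signal was 2.88 and 64.2 in wild-type spleen, 152 and 46.1 in knockout spleen, 16.1 and 52.5 in wild-type lymph node, and 112 and 98.8 in knockout lymph node. Both knockout arrays of lymph node were above both wild-type arrays, while the spleen groups overlapped. The difference was 1.86 ± 1.02 in lymph node (limma adjusted p = 1; at least 1.79-fold against background), 1.76 ± 1.02 in spleen (adjusted p = 0.731) and 1.81 ± 0.72 averaged (adjusted p = 0.677; unadjusted p = 0.0408; exact permutation p = 0.111). In spleen it was 0.38 without wild-type A and 3.12 without wild-type B, the 2 arrays that differ most.

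Mbp, myelin basic protein, a main protein of the myelin sheath, was the only antigen with a signal well above background on every array. Its locus also yields longer transcripts, named Golli, that immune cells are known to make. Probe set 1425263_a_at read 894 and 846 in wild-type spleen, 452 and 792 in knockout spleen, 462 and 588 in wild-type lymph node, and 144 and 646 in knockout lymph node. Probe set 1425264_s_at read 782 and 819.6, 683 and 751, 559.6 and 803, and 468 and 606 in the same order. Both were lower on each knockout spleen array than on either wild-type one, and the lymph node groups overlapped. The averaged difference was -0.66 ± 0.49 for the first (limma adjusted p = 0.822) and -0.25 ± 0.25 for the second (adjusted p = 0.878), so neither passed. For the first probe set the lymph node difference of -0.77 became 0.31 without knockout array A.

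The other 6 Mbp probe sets behaved unlike these. On wild-type spleen A alone, 4 of them were above background: 1456228_x_at at 318, 1454651_x_at at 223, 1436201_x_at at 191 and 1419646_a_at at 59.4. Their highest signals elsewhere were 58.5, 49.6, 24.9 and 28.4. The ending _x_at marks probe sets that may also bind other transcripts, and the sources used here do not say which Mbp transcript each probe set reads. Other myelin genes did not rise on that array: Mog was 24.9, Mobp 6.66, Mag 1.90 and Pmp2 4.49, all under background. Probe set 1433532_a_at was above background on lymph node wild-type B (117) and knockout B (66.0), with 17.7 and 34.2 on the A arrays and at most 33.4 in spleen, and 1451961_a_at on none.

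**Figure D3:**
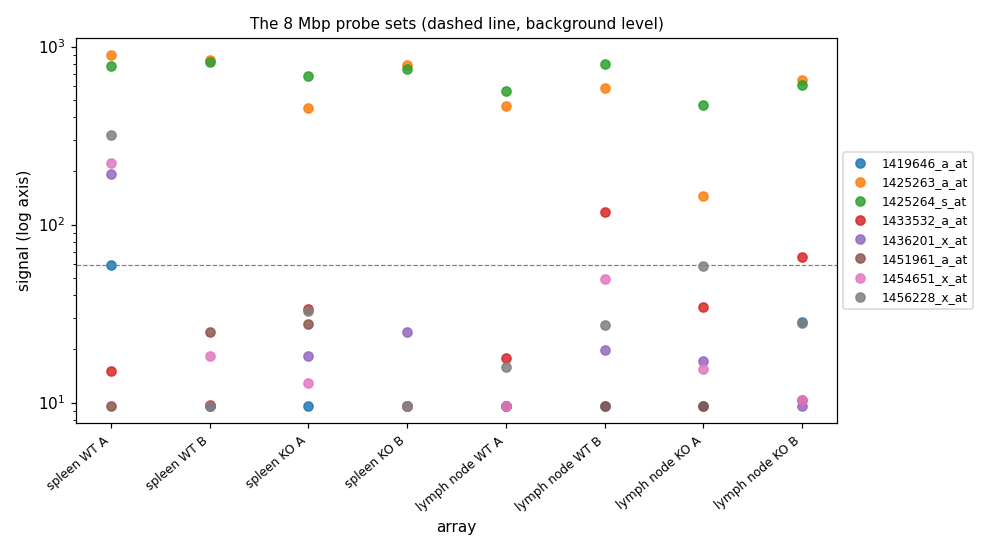
Signal (log axis) of the 8 Mbp probe sets on each array, with the background level as a dashed line and signals under the floor drawn at the floor. The pair 1425263_a_at and 1425264_s_at stays above background throughout, and 4 others exceed it on spleen wild-type A alone.

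Somatostatin (Sst), the hormone of islet delta cells, was above background on 5 arrays. Its signal was 88.1 and 104 in wild-type spleen, 48.7 and 126 in knockout spleen, 116 and 9.49 in wild-type lymph node, and 47.8 and 101 in knockout lymph node. The groups overlapped in both tissues, and the averaged difference was 0.39 ± 0.79 (limma adjusted p = 0.953). In lymph node it was 1.06, and -0.74 without wild-type B, the array at 9.49. The other islet hormones stayed under background: Gcg (glucagon) reached 57.2, Ins2 (insulin) 49.2 and Ppy (pancreatic polypeptide) 36.8. Of 5 measured pancreatic acinar markers only Cela3b, an elastase, was above background on any array, on 6 of 8, and Spink1, the trypsin inhibitor of acinar cells, stayed at or under 4.59.

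Transthyretin (Ttr), a thyroid hormone and retinol carrier made by liver and choroid plexus, was above background in knockout spleen only. Probe set 1451580_a_at gave 32.3 and 53.5 for wild-type spleen, 68.3 and 105 for knockout spleen, 46.9 and 15.4 for wild-type lymph node, and 17.9 and 30.8 for knockout lymph node. The spleen groups did not overlap, and the difference there was 1.03 ± 0.62 (limma adjusted p = 0.742; at least 1.44-fold against background). The probe set entered the test through the knockout spleen arrays alone, so a higher value there was built into its being tested. In lymph node all signals were under background. A second Ttr probe set, 1455913_x_at, was above background on knockout spleen B alone (83.0), and the remaining 2 on no array. Of the other liver products on the list, Alb reached 51.4, Ambp 51.3, and Crp, Apcs and Cyp1a2 at most 22.2, all under background. The hepatocyte marker Apoa2 was also higher on both knockout spleen arrays, at 41.0 and 54.5 against 7.79 and 14.7, though all 4 were under background. Fgg was higher there as well, at 25.5 and 16.6 against 7.98 and 10.3, all under background. Apoa1 (1455201_x_at) was lower in knockout spleen, at 73.3 and 67.4 against 75.5 and 93.3. Fga was lower there, at 0.547 and 2.91 against 13.2 and 8.79, all under background. Signals under background give no measured difference. Fgb, Ahsg and Tat overlapped in spleen. The part of hepatocyte RNA in the Ttr signal was not tested. Of 7 hepatocyte markers Apoa1 was above background on 7 arrays, Apoa2 on 2, both of lymph node, and Fgg on 1, and the summed signal of the 7 was 154 and 229 in knockout spleen against 137 and 177 in wild-type spleen.

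Svs5, a protein secreted by the seminal vesicle, was above background on 7 arrays by probe set 1419346_a_at. It read 99.0 and 176 in wild-type spleen, 153 and 61.5 in knockout spleen, 27.8 and 142 in wild-type lymph node, and 114 and 108 in knockout lymph node. The groups overlapped in both tissues, and the averaged difference was 0.19 ± 0.57 (limma adjusted p = 0.971). The 4 other Svs5 probe sets read lower: 1419347_x_at was above background on wild-type spleen A (63.5) and 1456124_x_at on knockout spleen B (70.01), each on that array alone, and 2 were on none. The widest gap within a group was that of wild-type lymph node, and without its array A the lymph node difference of 0.82 became -0.36.

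**Figure D4:**
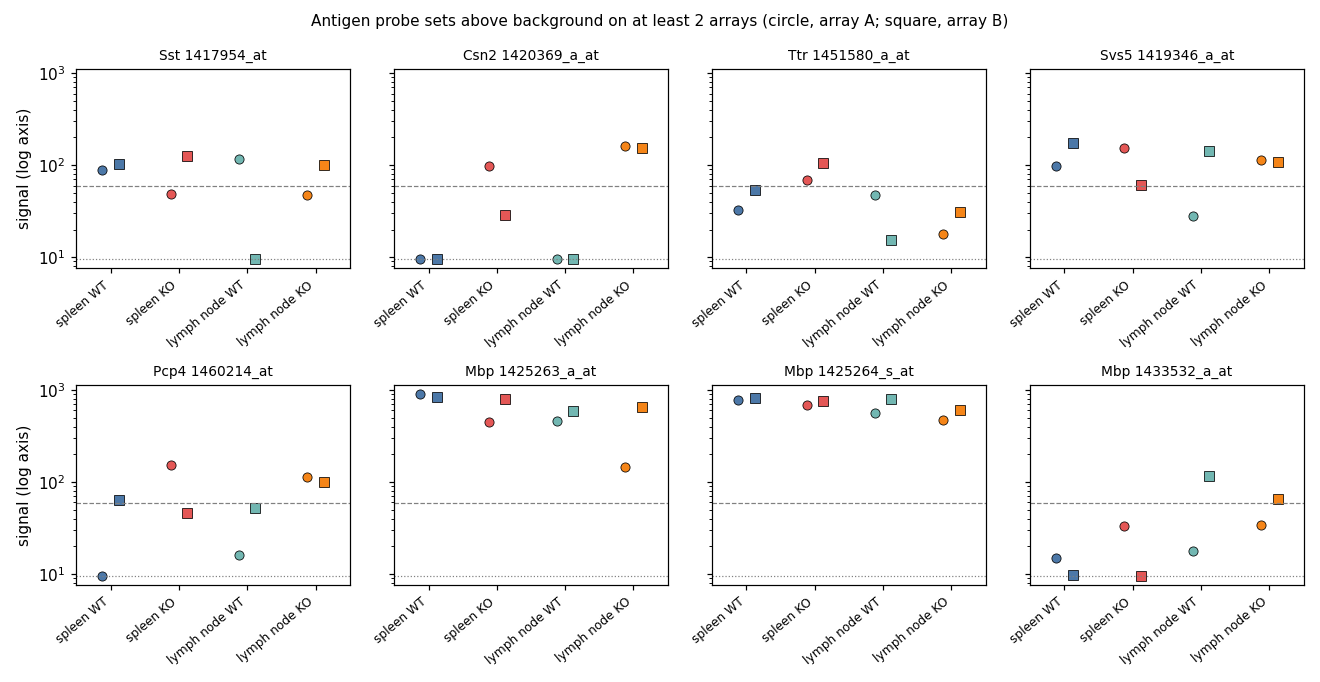
Signal (log axis) of the 8 antigen probe sets that were above background on at least 2 arrays, by group, with array A as a circle and B as a square; the dashed line is the background level and the dotted line the floor. For Csn2 all 4 wild-type points sit on the floor, and for Sst and Pcp4 the 2 arrays of a group can lie on different sides of the dashed line.

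The remaining 23 genes were above background on no array. In gut, Tff3, a trefoil peptide of mucus-secreting cells, reached 45.4, S100g, a calcium-binding protein of the duodenum, 38.3, and Fabp2, the intestinal fatty acid binding protein, 18.3. Among gland and reproductive genes Spt1 reached 24.2, Fabp9, a testis protein, 7.88, and Obp1a, an odorant binding protein, 3.82. Spt1, a salivary product, was 4.22 and 16.1 on the 2 lymph node arrays with high Smr3a and Amy1. In the nervous system, eye and muscle, Rbp3, the retinoid binding protein of the retina and a target of autoimmune uveitis, reached 54.1, Gad1, an enzyme that makes GABA, 48.9, and Chrna1, the muscle acetylcholine receptor subunit, 22.5. Thyroglobulin (Tg) reached 32.4 and tyrosinase (Tyr), the enzyme of pigment synthesis, 14.1. For Tg both knockout arrays read lower than both wild-type arrays in each tissue, with spleen signals of 30.1 and 32.4 for wild-type, 7.54 and 4.72 for knockout, and lymph node signals of 28.9 and 26.8 for wild-type, 26.4 and 21.3 for knockout, but all 8 signals were under background and give no measured difference.

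None of the 8 tested antigen probe sets passed an adjusted p under 0.05 by limma in spleen, where 0.00755% of all probe sets did, nor in lymph node or averaged over tissues, where 0.0113% did for each. At an unadjusted p under 0.05, Csn2 was higher in spleen and in lymph node, and Csn2 and Pcp4 were higher averaged over tissues, and no antigen was lower. Of all probe sets 7.90% passed that p in spleen (3.48% higher, 4.42% lower), 2.94% in lymph node (1.52% higher, 1.42% lower) and 7.18% averaged over tissues (3.25% higher, 3.93% lower). Both knockout arrays lay above both wild-type arrays in 6 of the 54 antigen probe sets in spleen, where 11.7% of all did, and in 5 in lymph node, where 12.3% did. They lay below in 8 in spleen (18.2% of all) and in 3 in lymph node (13.9% of all). In both tissues at once they lay above for 1, Csn2 (2.30% of all), and below for 1, Tg (3.67% of all). The median difference over all 54, with the floor applied, was 0 in both tissues and -0.05 averaged, against -0.02, 0 and -0.03 over all 45037. The genotype difference of no tested antigen differed between tissues past the threshold (lowest unadjusted p = 0.0851, for Csn2; limma adjusted p = 0.9998; 0.00% of all probe sets passed), and 0 of the 8 had an unadjusted p under 0.05, where 3.56% of all did (1.62% higher, 1.94% lower). In bulk RNA, fewer cells of a type and less RNA per cell cannot be told apart.

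**Figure D5:**
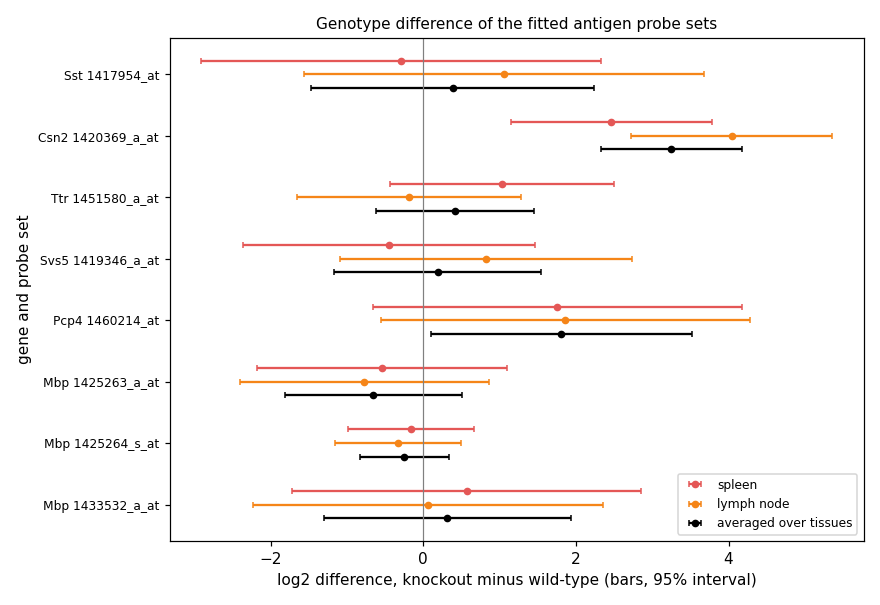
Knockout minus wild-type difference (log2) of the 8 fitted antigen probe sets in spleen, in lymph node and averaged over tissues, as points with 95% intervals. The interval lies above 0 for Csn2 in all 3 comparisons and for Pcp4 in the average, and includes 0 for the others.

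Tissue made no difference that passed either, with 0 of the 8 past an adjusted p under 0.05 by limma and 0.00% of all probe sets. At an unadjusted p under 0.05, 1 was higher in spleen (5.39% of all) and 1 lower (4.20% of all), where 9.59% of all passed in either direction. These were Ttr, fitted at 1.24 ± 0.44 (limma adjusted p = 0.452; unadjusted p = 0.0255), and the Mbp probe set 1433532_a_at, fitted at -1.66 ± 0.69 (limma adjusted p = 0.51; unadjusted p = 0.0453). Ttr entered the test through spleen arrays alone and this Mbp probe set through lymph node arrays alone, so the direction was built into their being tested. The tissue with the lower signal was under background on all 4 arrays in both cases. No bound on either fold holds, since the tissue with the higher signal was also under background on some of its arrays. Mbp by its strong probe sets was higher in spleen by 0.86 ± 0.49 and 0.34 ± 0.25, both within the spread of the arrays (adjusted p = 0.635 and 0.729). Csn2 was lower in spleen, at -0.79 ± 0.39 (adjusted p = 0.59). In 0 of the 54 probe sets did the 4 spleen arrays lie wholly above or wholly below the 4 lymph node arrays, where 2.42% and 1.55% of all did.

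A second list of organ-restricted genes, drawn from the same kinds of organ, gave the setting for these values. Of its 47 genes 41 were measured by 67 probe sets; 44 of these were above background on no array and 5 on all 8. None of the 13 that were tested passed for genotype or tissue by limma. At an unadjusted p under 0.05, 3 were lower and 0 higher for the averaged genotype difference, where 3.93% and 3.25% of all probe sets were. The 3 came from only 2 genes, Fabp1 with both of its probe sets and Myl1. For tissue 2 were higher in spleen, Pmel and Myl1, and 0 lower, where 5.39% and 4.20% of all were. Fabp1, the fatty acid binding protein of liver and gut, had the strongest signal: 1448764_a_at read 1857 and 2206 in wild-type spleen, 1163 and 1131 in knockout spleen, 1986 and 2449 in wild-type lymph node, and 1871 and 1718 in knockout lymph node. Both knockout arrays were below both wild-type arrays in each tissue, as in 3.67% of all probe sets. The averaged difference was -0.56 ± 0.23 (limma adjusted p = 0.69), and -0.84 ± 0.31 for 1417556_at (adjusted p = 0.639). The lymph node groups of 1417556_at overlapped, at 1064 and 1644 in wild-type against 1228 and 756 in knockout. Myl1, a muscle myosin light chain, read 137 and 192 in wild-type spleen, 29.6 and 37.6 in knockout spleen, 66.4 and 53.4 in wild-type lymph node, and 11.6 and 22.9 in knockout lymph node, a difference of -2.07 ± 0.31 (adjusted p = 0.221; at least 1.67-fold lower in knockout against background). Myl1 entered the test through wild-type arrays alone, so a lower knockout value was built into its being tested. Apoa1 by 1419233_x_at differed by -0.88 ± 0.46 (adjusted p = 0.748). Only Apoa2, at 1.04 ± 0.44 (adjusted p = 0.696), and 1 Cela3b probe set, 1435611_x_at, at 0.56 ± 0.45 (adjusted p = 0.842), were higher in knockout. Pmel, a melanosome protein, was higher in spleen than lymph node by 1.74 ± 0.31 (adjusted p = 0.245), with 160 to 429 in spleen and 64.4 to 112 in lymph node.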

How the data were processed

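RNA of 8 mouse samples was read on Affymetrix arrays. The intensity values deposited by the authors are MAS5 signals, 1 per probe set, per the submitters' processing notes; the sources used here give no version and no detection calls. Every array had a 2% trimmed mean of 250, so the authors had scaled it. The 64 control probe sets were left out. Each array was brought to the common median, signals under 9.58 were raised to that floor, and log2 values were taken. The 26480 probe sets above 59.0 on at least 2 arrays were fitted in limma 3.58.1 (R 4.3.3) with 4 group means and Benjamini-Hochberg adjustment; 4 residual degrees of freedom were moderated. The procedure was tested on simulated data. A fold against a group under background is bounded by the background level, where all arrays of the other group were above it. Gene names came from the platform annotation, updated through gene IDs. The antigens, lists and tests were chosen with earlier results of these data known. The antigens named with values are those tested; of a second list, up to 3 per direction with the smallest p. Myelin and salivary markers were picked after the data were seen. The number of arrays limits the precision.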

Additional observations from a re-analysis of the deposited data

Results flagged for a closer look

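In 3 of 67 probe sets (4.48%; the 54 of the antigens and the 13 tested of the second list) both knockout arrays lay on one side of the wild-type arrays in spleen and on the other side in lymph node, against 3.12% of all 45037 probe sets. Iapp, the islet hormone amylin, of the second list, gave 126 and 158 for wild-type spleen, 62.6 and 85.7 for knockout spleen, 67.1 and 79.2 for wild-type lymph node, and 150.2 and 121 for knockout lymph node. The spleen difference minus the lymph node difference was -1.84 on the log2 scale (limma adjusted p = 0.9998; unadjusted p = 0.00803), so it did not pass. For Svs5 1456124_x_at that value was 1.65 and for Csn3 1419735_at it was -1.25. Neither was above background on 2 arrays, and these 2 differences were not tested.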

How the results depend on the processing

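The differences were recomputed without median scaling or with quantile normalization, without a floor or with one at the 40th percentile, with no filter or a filter of 4 arrays, with a trended robust prior, with genes summarised by 1 probe set or by the mean over theirs, with each array left out, with the letter as a block and with Y-linked signal as a covariate. Over 564 values of antigen differences 537 kept their direction and 2, both for Csn2 averaged over tissues, passed an adjusted p under 0.05. The count of antigen probe sets past it was 0 in 94 of 96 settings and 1 for the averaged difference with no floor and without knockout spleen B (leave-one-out range 0 to 1). The antigen probe sets above background on 2 arrays numbered 8, with 7 to 8 when an array was left out, 17 with the 40th percentile as the level, 2 with the 75th, and 30 with the highest bacterial control. Over all probe sets the number past the threshold in spleen was 2, with 5 under the 4-array filter, 4 with the trended prior and 0 with either gene-level summary. In lymph node it was 3, with 0 at gene level and 1 to 3 when an array was left out, with 1 without either knockout array. Averaged it was 3, with 5 for no floor, 5 for the higher floor, 9 under the 4-array filter, 11 with the trended prior, 0 at gene level and 2 to 7 when an array was left out, with 7 without knockout spleen B. Between tissues it was 0, with 65 under the trended prior, 1 for the mean of probe sets and 0 to 2 when an array was left out. Aire passed with the trended prior (-1.76, adjusted p = 0.0339); its adjusted p over the alternatives ran from 0.0339 to 0.862.

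The reversed values were all of antigens that did not pass. With the 40th percentile floor, knockout minus wild-type was -0.41 in lymph node and -0.21 averaged for Mbp 1433532_a_at, and -0.080 averaged for Sst. With the Y-linked covariate it was 0.25 for Sst in spleen, -0.33 averaged for Svs5, and -0.30 in lymph node and -0.081 averaged for Mbp 1433532_a_at. Leaving out single arrays gave, for knockout minus wild-type, Sst from -0.97 to 0.40 in spleen, -0.74 to 2.87 in lymph node and -0.51 to 1.29 averaged. Svs5 ran from -1.10 to 0.21, -0.36 to 2.0 and -0.40 to 0.78, and Mbp 1433532_a_at from -0.31 to 1.47, -1.30 to 0.54 and -0.37 to 0.77. In lymph node Ttr ran from -1.0 to 0.62 and Mbp 1425263_a_at from -1.85 to 0.31. For spleen minus lymph node, Sst ran from -0.054 to 1.75, Svs5 from -0.15 to 1.03 and Pcp4 from -0.96 to 0.41. The cause was not tested. A group reduced to 1 array was assumed to vary like the others.

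With the letter as a replicate block the averaged Csn2 difference stayed 3.25 (adjusted p = 0.141), and all counts stayed as they were: 2, 3, 3 and 0. With genotype and letter as the block the tissue difference of Csn2 was -0.79 (adjusted p = 0.475). The A minus B differences of the wild-type and knockout groups correlated at 0.05 in spleen and 0.23 in lymph node, and those of spleen and lymph node at 0.07 in wild-type and 0.29 in knockout. Low Eif2s3y marked both wild-type A arrays and low Xist both knockout B arrays, so the letters may link the tissues within a genotype, though the labels do not say so.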
